A study of Mus musculus with 4 samples.

Results

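The genes described here flank *P4htm* on mouse chromosome 9, and *P4htm* itself was left out. *P4htm* encodes P4H-TM, a transmembrane prolyl 4-hydroxylase of the endoplasmic reticulum that acts on the hypoxia-inducible factor HIF. The list holds 42 genes, of which 39 were measured by a probe set that names 1 gene, out of 18194 genes measured in all. The genes were chosen by a mixture of their place next to *P4htm* and their measured differences between *P4htm*-/- (KO) and WT cortex on these same arrays, so those differences are given as a description and support nothing. *Impdh2*, *Amt* and *Trex1* were not analysed here, the last because its probe set also names *Atrip*. For each gene the probe set with the highest mean over the arrays was used.

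The study asked how loss of P4H-TM alters the cortex after stroke. C57BL/6J mice that were 3 months old underwent permanent occlusion of the left middle cerebral artery (pMCAO), and both cortexes were taken 24 h later. The 4 groups were WT contralateral, KO contralateral, WT ipsilateral and KO ipsilateral cortex, where ipsilateral is the injured side and contralateral the uninjured one. Every mouse in all groups had the operation and no unoperated mice were on these arrays. Each group was 1 array of RNA pooled from 4 mice, so there is no replicate, no error and no test, and every difference is between 2 arrays. Both sides of a genotype came from the same mice, so they are not independent repeats of the genotype.

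When a gene is inactivated in cultured stem cells and the mice are then crossed to another strain, a stretch of stem cell DNA around the targeted gene is inherited with it, even after many generations. Genes in that stretch can then carry the alleles of the stem cell strain in KO mice and those of the crossing strain in WT mice. Such linked DNA and the loss of the targeted gene go together in every KO animal. The methods give many generations of backcrossing to C57BL/6, whereas how the line was made, the strain it was made in, the length of DNA that came with the mutation and the deleted part of *P4htm* are not stated in the labels or methods read for this work. An effect of linked DNA and an effect of the loss of P4H-TM therefore cannot be told apart in these data.

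The 4 arrays had like medians, 5.53 to 5.55 on the log2 scale, and 59.0% to 59.7% of their probe sets lay above the background limit of 4.79. That limit is the level below which 95% of 81 receptor probe sets (olfactory, vomeronasal and bitter taste) fell, genes that cortex does not use. Differences of those receptor probe sets between 2 arrays had an SD of 0.18 to 0.21, depending on the pair of arrays. Markers of cortical neurons had a median level of 12.30 to 12.43 on the 4 arrays, as the tissue label says. *P4htm* itself was 10.03 and 8.27 on the WT and KO contralateral arrays and 10.02 and 8.23 on the WT and KO ipsilateral arrays, so the arrays went with their genotype labels. Its probe set still lay above background in KO cortex, and whether it lies in the deleted part is not known here.

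Sequences are shown for the member that is a microRNA gene and for 3 genes whose levels are described below. *Mir425* makes a hairpin that is cut into the mature strands below, which RefSeq places on the plus strand of GRCm38.p6 at chr9:108568789-108568811 and chr9:108568830-108568850. Capitals mark the seed, bases 2 to 8, with which a microRNA pairs with its target mRNAs.
mmu-miR-425-5p: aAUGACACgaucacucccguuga
mmu-miR-425-3p: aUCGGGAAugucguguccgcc

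The promoters shown are those of *Ppm1m* and *Abhd14b*, which were lower in KO cortex and lie far from *P4htm* in gene order, and of *Wdr6*, the nearest neighbour on one flank. Each runs from 250 bases before to 50 bases after a RefSeq gene start on GRCm38.p6. Capitals mark ACGTG or GCGTG on either strand, the core letters of sites that HIF can bind. The windows are chr9:106199184-106199483 on the minus strand for *Ppm1m*, chr9:106448390-106448689 on the plus strand for *Abhd14b* and chr9:108578664-108578963 on the minus strand for *Wdr6*.
Ppm1m: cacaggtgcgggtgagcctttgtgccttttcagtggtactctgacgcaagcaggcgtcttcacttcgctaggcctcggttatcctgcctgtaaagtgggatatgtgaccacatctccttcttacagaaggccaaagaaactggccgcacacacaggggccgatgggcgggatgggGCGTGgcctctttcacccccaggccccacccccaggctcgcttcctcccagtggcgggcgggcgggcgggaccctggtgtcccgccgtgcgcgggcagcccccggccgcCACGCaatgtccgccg
Abhd14b: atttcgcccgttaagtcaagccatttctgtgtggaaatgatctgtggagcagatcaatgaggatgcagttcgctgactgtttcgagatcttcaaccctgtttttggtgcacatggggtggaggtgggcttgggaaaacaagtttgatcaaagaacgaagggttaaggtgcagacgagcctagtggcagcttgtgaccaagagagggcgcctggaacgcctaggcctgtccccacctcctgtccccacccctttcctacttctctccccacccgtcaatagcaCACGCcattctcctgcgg
Wdr6: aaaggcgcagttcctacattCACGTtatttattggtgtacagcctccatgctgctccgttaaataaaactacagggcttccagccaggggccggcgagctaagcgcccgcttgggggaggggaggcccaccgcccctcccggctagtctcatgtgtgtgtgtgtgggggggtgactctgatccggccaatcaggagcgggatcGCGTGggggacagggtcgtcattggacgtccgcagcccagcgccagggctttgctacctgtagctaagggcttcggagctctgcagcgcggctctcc

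The window of *Wdr6* overlaps the RefSeq span of *P4htm* by 102 bases, which shows how close the genes lie. RefSeq gives *Ppm1m* a second start, whose window holds none of these letters. Promoter windows were found for 39 of the 42 genes, 52 windows in all, and 32 of the 52 held ACGTG or GCGTG, against 43.8% of all 32851 mouse promoter windows. ACGTG, with or without GCGTG, was in 10 of the 52 windows and in 19.6% of all, and GCGTG, with or without ACGTG, in 31 and 32.4%. The GC box GGGCGG was in 36 of the 52 and 35.7% of all, CCAAT in 22 and 37.4%, and TATAAA in 6 and 13.6%. The median GC content was 58.9% over the members' windows and 52.7% over all windows, and letters rich in G and C are met more often where GC content is high. The P4htm window itself held neither ACGTG nor GCGTG. A match is a description of these letters and not a binding site.

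Most of the genes flanking *P4htm* differed little between the genotypes. Of the 39 measured members, 37 lay above background on all 4 arrays, *Mir425* on 2 arrays and *Mst1*, a secreted growth factor like protein, on none. Of the 39, 26 had KO minus WT differences within 0.25 of 0 on the log2 scale on both sides. Small differences were common over all genes too. The median absolute difference was 0.095 contralaterally and 0.14 ipsilaterally for members above background, against 0.08 and 0.12 for all genes above background. The 12 genes with the largest mean difference over the sides all had a mean below 0, and 11 of these 12 were below 0 on both sides. Over all genes above background, 3846 of 13435 were below 0 on both sides. The 12 were picked by the size of that mean, which favours genes whose sides have the same sign, so their count is a description only. Those 12 genes are given below with their level on each array, by role.

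**Figure D1:**
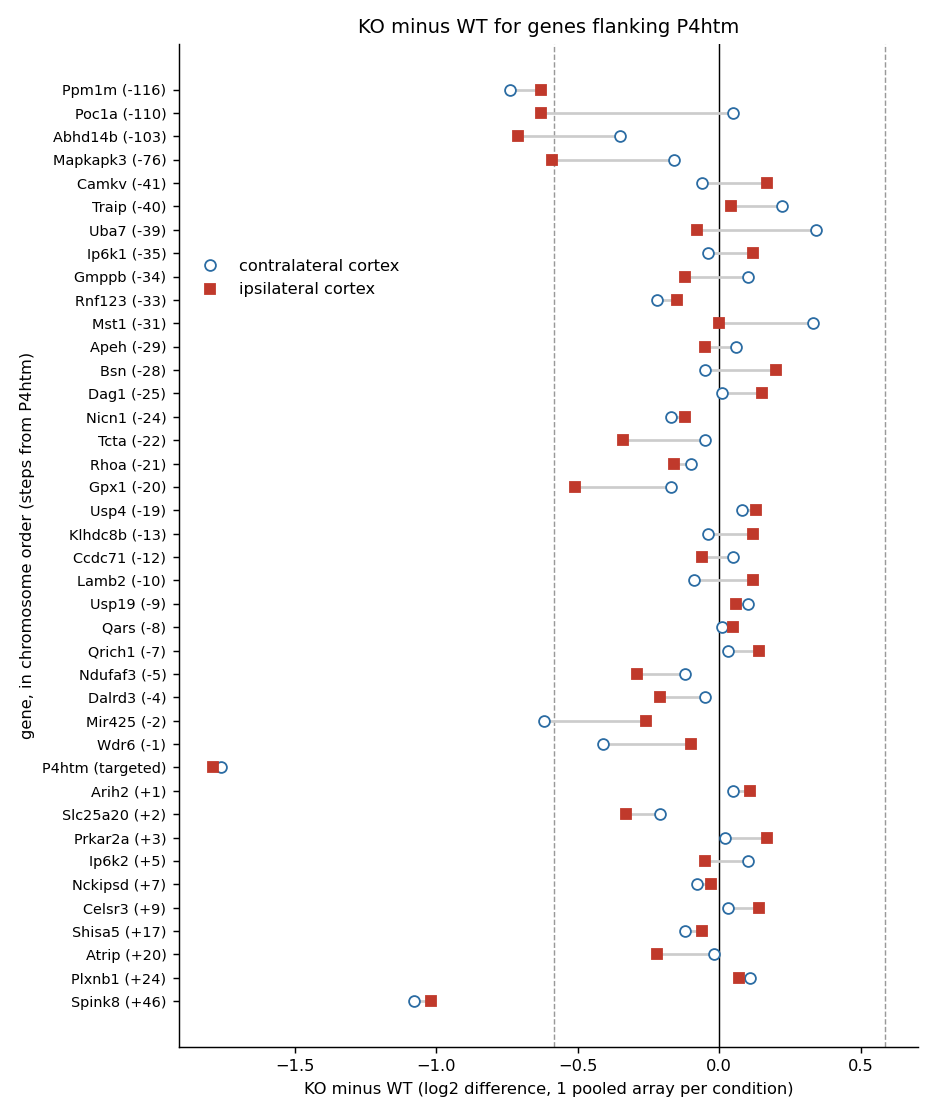
KO minus WT on the log2 scale (horizontal axis) for the 39 measured flanking genes and *P4htm* (vertical axis, in chromosome order with the steps from *P4htm* in brackets), where a circle is the contralateral and a square the ipsilateral side, from 1 pooled array per condition. Dashed lines mark 1.5-fold, and *Spink8* and *Ppm1m* lie beyond it on both sides while most genes lie near 0.

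*Spink8* was the member with the largest difference. It encodes a secreted inhibitor of serine proteases of the Kazal type and lies 46 genes after *P4htm* in RefSeq order. Its level was 6.31 in WT and 5.23 in KO contralateral cortex, and 6.51 in WT and 5.49 in KO ipsilateral cortex. Both KO arrays lay below both WT arrays, and all 4 lay above background. The only probe set of *Spink8* reached at most 6.51, which is below the 99th percentile of the receptor probe sets, 6.59. The difference was -1.08 contralaterally and -1.02 ipsilaterally, a level 2.11-fold and 2.03-fold lower in KO cortex. *Spink8* is known from pyramidal cells of the hippocampus, and 6 markers of hippocampus picked for this purpose after the values were seen had median differences of -0.19 contralaterally and 0.00 ipsilaterally, with 4 of 6 below 0 on the first side and 3 of 6 on the second. Their summed linear level was 1188 in WT and 1029 in KO contralateral cortex and 1550 in WT and 1466 in KO ipsilateral cortex, with *Tdo2* and *Dsp* not above background, and their part in the *Spink8* difference was not tested. In bulk tissue, fewer cells of a type and less RNA per cell cannot be told apart.

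*Abhd14b*, which encodes an alpha/beta hydrolase, lies 103 genes before *P4htm*. Its level was 7.38 in WT and 7.03 in KO contralateral cortex, and 7.62 in WT and 6.91 in KO ipsilateral cortex. The KO arrays again lay below the WT arrays, with differences of -0.35 and -0.71, the second past 1.5-fold. *Apeh*, a serine peptidase that removes acylated amino acids from peptides, had differences of 0.06 and -0.05.

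Among the kinases, phosphatases, GTPases and their regulators, 8 genes in all, *Ppm1m* and *Mapkapk3* stood lowest. *Ppm1m* encodes a serine/threonine phosphatase of the metal-dependent PPM family, 116 genes before *P4htm*, and was the farthest member. Its level was 9.21 in WT and 8.47 in KO contralateral cortex, and 9.09 in WT and 8.46 in KO ipsilateral cortex. The WT arrays lay close together, as did the KO arrays, and the differences of -0.74 and -0.63 were past 1.5-fold on both sides. *Mapkapk3*, a kinase switched on by p38 MAP kinase, was 6.07 in WT and 5.91 in KO contralateral cortex, and 6.59 in WT and 6.00 in KO ipsilateral cortex. Its differences were -0.16 and -0.59, so it was past 1.5-fold on the injured side only, and a second probe set gave -0.08 and -0.90. The other 6 genes of this group lay within 0.17 of 0 on both sides, among them *Camkv*, a pseudokinase of synaptic vesicles, with -0.06 and 0.17, *Prkar2a*, a regulatory subunit of protein kinase A, with 0.02 and 0.17, and *Rhoa*, a GTPase of the cytoskeleton, with -0.10 and -0.16.

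The mitochondrial and metabolic genes were lower in KO cortex on both sides in 3 of the 4 measured, where 3846 of all 13435 genes above background were. With 4 genes the count is a description and not a pattern of the group. *Gpx1*, the glutathione peroxidase that reduces hydrogen peroxide, was 11.52 in WT and 11.35 in KO contralateral cortex, and 11.96 in WT and 11.45 in KO ipsilateral cortex, so its difference was -0.17 and -0.51. *Slc25a20*, the mitochondrial carrier of acylcarnitines, lies 2 genes after *P4htm* and was 8.50 in WT and 8.29 in KO contralateral cortex, and 8.56 in WT and 8.23 in KO ipsilateral cortex. Its differences were -0.21 and -0.33, and a second probe set gave -0.29 and -0.50. *Ndufaf3*, an assembly factor of respiratory complex I, was 9.72 in WT and 9.60 in KO contralateral cortex, and 9.79 in WT and 9.50 in KO ipsilateral cortex. For each of these 3 genes both KO arrays lay below both WT arrays, and none reached 1.5-fold. *Gmppb*, which makes GDP-mannose, had 0.10 and -0.12.

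The genes of translation and of small RNA included the nearest neighbours of *P4htm*. *Wdr6*, a partner of a tRNA methyltransferase, is the gene just before *P4htm* and the gene whose promoter is shown above. Its level was 11.98 in WT and 11.57 in KO contralateral cortex, and 11.61 in WT and 11.51 in KO ipsilateral cortex. The KO arrays lay below the WT arrays, with differences of -0.41 and -0.10, and a second probe set gave -0.36 and -0.14. The probe set assigned to *Mir425*, whose mature strands are printed above, was 5.25 in WT and 4.63 in KO contralateral cortex, and 5.05 in WT and 4.79 in KO ipsilateral cortex. Neither KO array lay above the background limit, so the contralateral difference of -0.62 is a bound of -0.46 when the KO level is set to that limit, and the ipsilateral difference was -0.26. Such a probe set reads a longer polyadenylated transcript and not the mature microRNA. *Qars*, the glutamine tRNA ligase, had 0.01 and 0.05, and *Dalrd3*, a tRNA methylation cofactor that lies beside *Mir425*, had -0.05 and -0.21.

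*Poc1a*, which encodes a centriole protein, was the exception among the 12 genes. Its level was 5.28 in WT and 5.33 in KO contralateral cortex, and 5.57 in WT and 4.94 in KO ipsilateral cortex, so the genotypes overlapped. The difference was 0.05 contralaterally and -0.63 ipsilaterally. *Atrip*, the partner of the DNA damage kinase ATR, had -0.02 and -0.22.

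**Figure D2:**
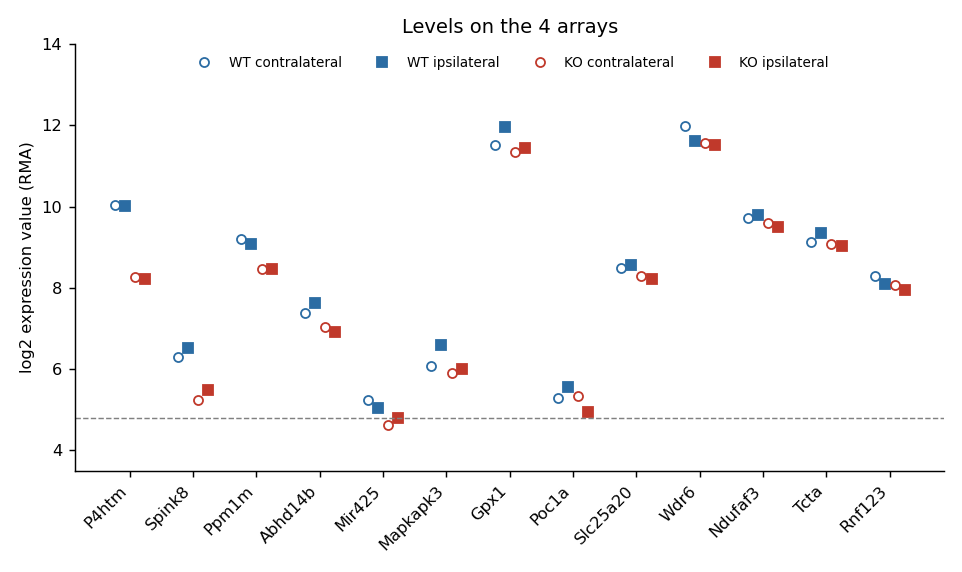
Log2 level (vertical axis) on the 4 arrays for *P4htm* and the 12 members with the largest mean difference (horizontal axis), with 1 pooled array per symbol, WT in blue, KO in red, circles for contralateral and squares for ipsilateral cortex, and the background limit of 4.79 as a dashed line. KO arrays lie below WT arrays for 11 of the 12 members, which were picked by the size of this difference, and *Poc1a* is the exception. Over all genes above background the share was 17.5%.

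Of the 6 genes of the ubiquitin system, 4 had differences above 0 on both sides, all small, where 2976 of all 13435 genes above background did. With 6 genes the count is a description and not a pattern of the group. *Arih2*, a ubiquitin ligase and the gene just after *P4htm*, had 0.05 and 0.11, although another of its probe sets gave -0.58 and 0.17. *Usp4* and *Usp19*, which remove ubiquitin, had 0.08 and 0.13, and 0.10 and 0.06. *Rnf123*, a ubiquitin ligase that acts on the cell cycle inhibitor p27, ran the other way and was 8.30 in WT and 8.08 in KO contralateral cortex, and 8.09 in WT and 7.94 in KO ipsilateral cortex. Both KO arrays of *Rnf123* were below its contralateral and ipsilateral WT arrays, by as little as 0.01 between the KO contralateral and WT ipsilateral arrays. *Uba7*, the activating enzyme for the interferon-induced modifier ISG15, had 0.34 contralaterally and -0.08 ipsilaterally. Over all members, 27 other probe sets above background were compared with the probe set used for their gene, and 18 had its sign contralaterally and 20 ipsilaterally. The largest gap to the probe set used was 0.63, for that probe set of *Arih2* on the contralateral side.

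The 5 genes of basement membrane, receptors and synapse that lay above background had differences of -0.09 to 0.11 contralaterally and 0.07 to 0.20 ipsilaterally. They are *Dag1*, the dystroglycan receptor for laminin, with 0.01 and 0.15, *Bsn*, the presynaptic scaffold bassoon, with -0.05 and 0.20, *Plxnb1*, a semaphorin receptor, with 0.11 and 0.07, *Celsr3*, an adhesion receptor of axon guidance, with 0.03 and 0.14, and *Lamb2*, a laminin chain, with -0.09 and 0.12. Among the genes of other or less known function, *Tcta* was lowest, with 9.14 in WT and 9.09 in KO contralateral cortex and 9.36 in WT and 9.02 in KO ipsilateral cortex. Its ipsilateral difference was -0.34, and its other probe sets above background gave -0.30 and -0.16. With all its probe sets averaged, including one with 0.24 that was not above background, it was -0.14. *Shisa5*, a p53-induced protein of the endoplasmic reticulum, had -0.12 and -0.06. Over the 27 members outside the 12, the mean of both sides ran from -0.145 to 0.165.

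Called past 1.5-fold, with at least 1 of the compared arrays above background, 3 of 38 members were lower in KO contralateral cortex and 0 higher, where 0.159% and 0.227% of all 13195 genes tested were lower and higher. The 3 were *Spink8*, *Ppm1m* and *Mir425*, and the last, with its KO level below background, is not shown to reach 1.5-fold. With levels not above background set to the limit, 2 members were lower there, against 0.0985% of all genes. In ipsilateral cortex 5 of 38 were lower and 0 higher, against 0.577% lower and 0.0899% higher of 13346 genes, and the 5 were *Spink8*, *Ppm1m*, *Abhd14b*, *Poc1a* and *Mapkapk3*. The median difference of the members was -0.045 contralaterally and -0.06 ipsilaterally, and of all genes -0.01 on either side. These counts rest on the values by which genes were chosen and say nothing more of the neighbourhood.

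The sides ran together for most members. Of the 38 members above background, 27 had the same sign on both sides, 10 higher and 17 lower, or 71.1%, whereas 50.8% of all 13435 genes above background did. The count of members was 22 with the mean of a gene's probe sets and 24 with each array centred on its median. It was 23 with the background limit at the 99th percentile, where fewer than 38 members lay above background, so the 2 counts are not out of the same number. With cyclic loess or no filter on low values it was 27. Shares over all genes under these alternatives are not given here. *Spink8* and *Ppm1m* were lower past 1.5-fold on both sides, which held for 0.0223% of all genes, namely these 2 and *P4htm*. With a smaller limit of 0.322 on the log2 scale, the same way on both sides, 3 members passed, *Abhd14b* with those 2, against 0.64% of all genes. Both KO arrays lay below both WT arrays for 15 members, against 17.5% of all genes, and above them for 6 members, against 13.0%. Beside the 11 genes described above, the 15 were *Atrip*, *Dalrd3*, *Nicn1*, which belongs to a tubulin-modifying complex, and *Rhoa*. The second probe set of *Nicn1* ran the other way, with differences of 0.14 and 0.22 and both KO arrays above both WT arrays. The 6 genes with higher KO arrays were *Arih2*, *Dag1*, *Plxnb1*, *Prkar2a*, *Usp4* and *Qrich1*, a regulator of transcription with 0.03 and 0.14. The Pearson correlation of the sides over the 38 members was 0.67 with a Spearman rho of 0.51, and without *Spink8* and *Ppm1m* it was 0.42 and 0.43, where all genes gave 0.13 and 0.11. These correlations are across genes on the same 4 arrays, whose sides came from the same mice, and genes are not replicates.

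**Figure D3:**
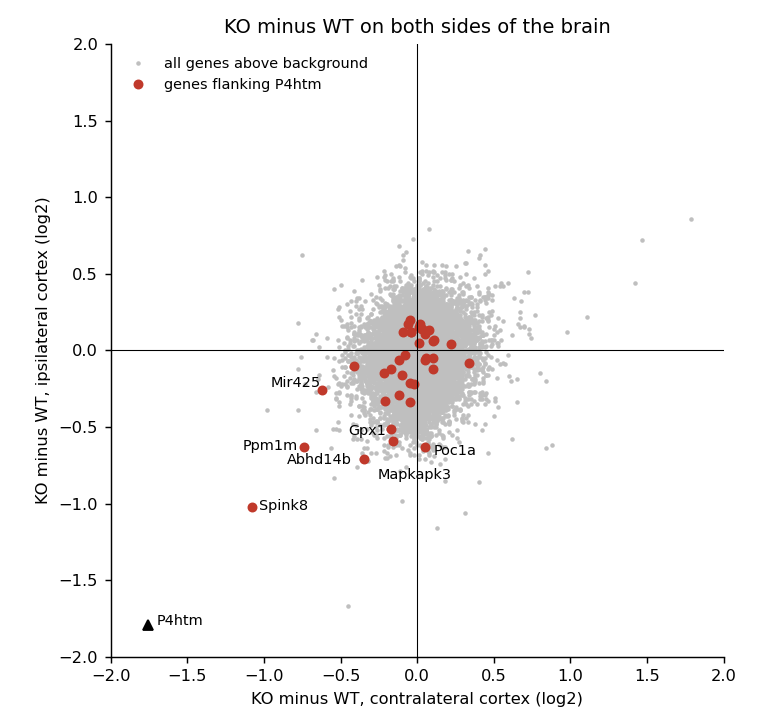
KO minus WT on the log2 scale in contralateral (horizontal axis) and ipsilateral cortex (vertical axis), with 1 point per gene above background, members in red and *P4htm* as a triangle. *Spink8* and *Ppm1m* lie lower than 1.5-fold on both axes, while *Poc1a* lies low on the vertical axis only.

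The genes near *P4htm* that were not on the list were looked at by distance in gene order. With the members left out, 65 genes lay above background within 100 genes of *P4htm* on either side, and 64.6% of them had the same sign on both sides, with a Pearson correlation of 0.52. Within 200 genes 52.5% had the same sign, near the 50.7% of genes on other chromosomes, and the correlation was 0.45. Among the 65 genes 5, or 7.69%, were past 0.322 the same way on both sides. Within 200 genes it was 6 of 122, or 4.92%, against 0.553% of genes on other chromosomes. Part of these counts rested on levels not above background. With such levels set to the limit, 2 of the 65 genes, or 3.08%, and 3 of the 122, or 2.46%, were past 0.322, against 0.403% on other chromosomes, and the correlation within 100 genes was 0.41. The genes below were named after their values were seen. *Abhd14a*, a hydrolase gene next to *Abhd14b*, had -0.42 and -0.58. *Ifrd2* had -0.52 and -0.47, and *Zmynd10*, a gene of motile cilia, had 0.34 and 0.41. The other 3 genes did not pass once levels were set to the limit. The KO levels of *Cdhr4* and *Lrrc2* were not above background, and their differences are bounds of -0.07 and -0.01 for *Cdhr4* and of -0.09 and -0.38 for *Lrrc2*. *Ngp*, a granule gene of neutrophils that is also on the neutrophil marker list below, lay above background on the KO ipsilateral array alone, at 4.90, which bounds its ipsilateral difference at 0.11. No non-member within 100 genes was past 1.5-fold on either side with levels set to the limit, and none within 200 genes was past it on both sides. With *Spink8* left out, the correlation over genes within 100 genes fell from 0.60 to 0.50.

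By distance and with members included, the Pearson correlation of the sides was 0.50 for genes 1 to 25 steps away and 0.58 for 26 to 50. It was 0.65 for 51 to 100 and 0.46 from there to 200. Spearman rho in the same bands was 0.55, 0.17, 0.60 and 0.18. Members in these bands were chosen partly by these same values, and the bands were not computed without them. Farther out the Pearson correlation was 0.13 up to 400 steps and 0.15 beyond 400 on the same chromosome, near the 0.12 of other chromosomes. Spearman rho there was 0.10, 0.16 and 0.11 in turn. The share with the same sign did not follow distance evenly, at 77.4%, 42.9%, 70.8%, 40.0% and 52.6% in the same order up to 400 steps, and beyond that 253 of 506 genes shared a sign. The bands up to 400 steps held 31, 21, 48, 60 and 114 genes.

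**Figure D4:**
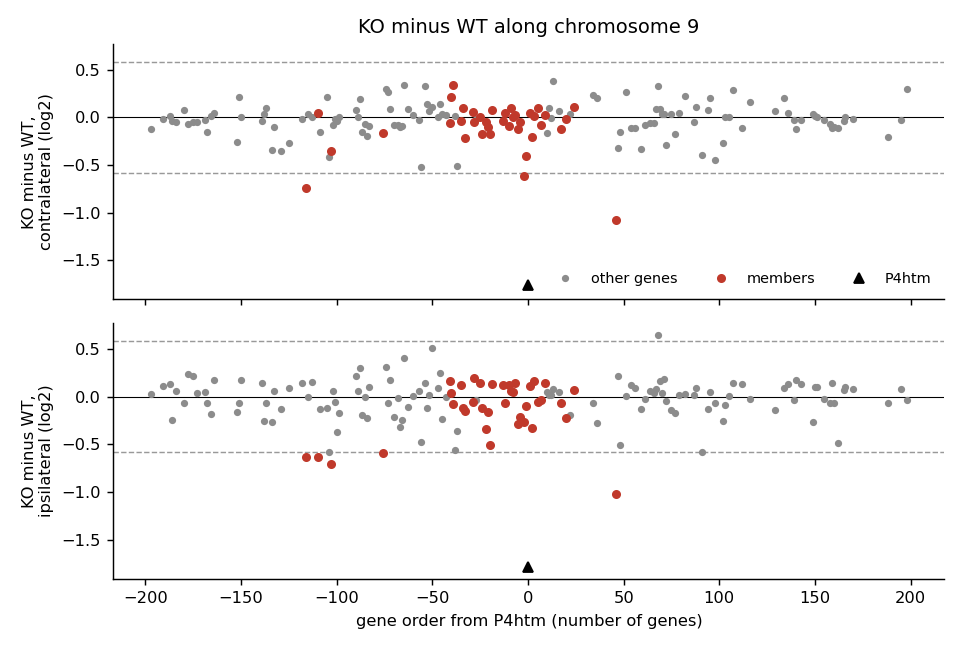
KO minus WT on the log2 scale (vertical axis) in contralateral (upper panel) and ipsilateral cortex (lower panel) by steps in gene order from *P4htm* (horizontal axis), for genes above background within 200 genes, with members in red, other genes in grey, *P4htm* as a triangle and dashed lines at 1.5-fold. *Spink8* at 46 steps after and *Ppm1m* at 116 steps before *P4htm* are the lowest members on the contralateral side.

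The response to injury, ipsilateral minus contralateral within a genotype, was not used to choose the genes, although it shares arrays with the genotype differences. In WT cortex 1 of 38 members was higher past 1.5-fold and 0 lower, where 2.41% of all 13304 genes were higher and 0.443% lower. That gene was *Uba7*, with 5.98 in contralateral and 6.58 in ipsilateral WT cortex and 6.32 and 6.50 in KO cortex, a difference of 0.60 in WT and 0.18 in KO. In KO cortex 0 of 37 members were called in either direction, where 1.53% of 13295 genes were higher and 0.165% lower. *Mapkapk3* had 0.52 in WT and 0.09 in KO, and *Gpx1* 0.44 and 0.10. *Poc1a* had 0.29 in WT and -0.39 in KO, and *Spink8* had 0.20 and 0.26. Below 0 in both genotypes were *Klhdc8b*, with -0.40 in WT and -0.24 in KO, *Camkv*, with -0.38 and -0.15, *Lamb2*, with -0.36 and -0.15, and *Traip*, a ubiquitin ligase of replication stress, with -0.13 and -0.31. The members' median was -0.055 in WT and -0.06 in KO cortex. In WT it was 0.022 when a gene's probe sets were averaged and -0.009 with cyclic loess, so it has no settled sign there. With at least 1 of the compared arrays above background, the difference lay above 0 for 16 of 38 members in WT and 11 of 37 in KO. Over all genes it lay above 0 for 5980 of 13304 in WT and 5543 of 13295 in KO.

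**Figure D5:**
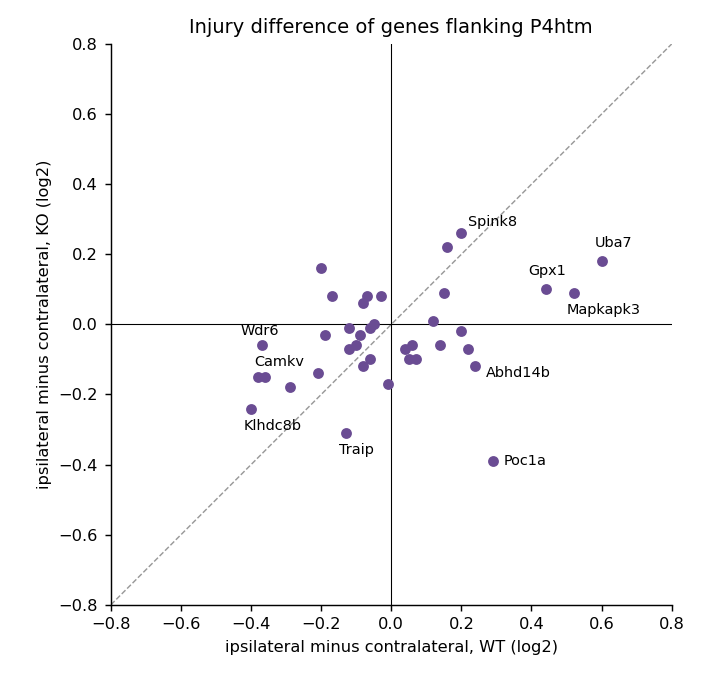
Ipsilateral minus contralateral on the log2 scale in WT (horizontal axis) and KO cortex (vertical axis) for the 38 members above background, with 1 point per gene and a dashed line where both are equal. *Uba7*, *Mapkapk3* and *Gpx1* lie at 0.44 to 0.60 in WT and at 0.09 to 0.18 in KO cortex.

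Markers of other cell types also had differences between the ipsilateral arrays, a pair for which the receptor probe sets had an SD of 0.19. Over all genes tested on that side, 6263 of 13346 were above 0 and 6784 below 0. Of the markers measured, 7 of 7 for cortical neurons were higher in KO ipsilateral cortex, with a median of 0.14, and 5 of 5 for oligodendrocytes were lower, with a median of -0.19. The summed linear level was 36167 in WT and 40458 in KO ipsilateral cortex for neurons, and 36138 and 32727 for oligodendrocytes. For microglia 5 of 6 were lower, with sums of 6221 and 5908, and for neutrophils 5 of 5 were higher, with sums of 310 and 393 and *Camp* and *Mpo* not above background. Choroid plexus markers had sums of 17367 and 12848 there, and of 613 in WT and 718 in KO contralateral cortex, with *Otx2* not above background. Astrocyte markers had an ipsilateral median of -0.08, with 4 of 6 lower and 1 higher. Markers of blood vessels and meninges had a median of -0.08, with 4 of 6 lower and 2 higher. The red blood cell markers measured were not above background. On the contralateral side the medians were -0.06 for neurons, -0.11 for oligodendrocytes and 0.33 for neutrophils. The median level of the neutrophil markers on that side was 4.28 in WT and 4.62 in KO cortex. Both lie below the background limit, so the size of this neutrophil difference is not known. The part of cell makeup in the members' differences was not tested.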

How the data were processed

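The authors hybridized pooled RNA to Affymetrix mouse genome arrays. The deposited values are log2 signals of probe sets, for which the submitters' processing notes name RMA. The methods name GenePattern software. No version is stated for either, and the logarithm was read as base 2 because of how far the values spread. RMA brings the arrays to a common distribution, so a shift shared by all genes is not seen.

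Of 45101 probe sets, 34958 name 1 gene, 932 several and 9211 none, and those naming 1 gene were used. Gene order came from a RefSeq table of GRCm38.p6, matched by Entrez ID for 34754 probe sets, since the array files name no build. With 1 array per condition, no test was made. The number of arrays limits the precision. Values on all arrays are given for members past 1.5-fold on a side and for the 12 with the largest absolute mean of both KO minus WT differences. The members and lists were chosen with earlier results of these data known. The number of value columns not used was 0. Counting was tested on simulated data. Calculations used Python 3.11.15, pandas 2.3.3 and numpy 2.4.6, with limma 3.58.1 in R 4.3.3 for cyclic loess as an alternative.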

Additional observations from a re-analysis of the deposited data

Results flagged for a closer look

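*Poc1a* had a KO minus WT difference of -0.63 in ipsilateral cortex and of 0.05, well inside the receptor SD of 0.18, in contralateral cortex, where cyclic loess gave 0.01. It drew attention because the signs differ and the sides lie far apart. The ipsilateral difference minus the contralateral one was -0.68 on the log2 scale. With 1 array per condition the difference was not tested.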

How the results depend on the processing

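Of the counts and medians recomputed under an alternative, 98 stayed close to their value and 26 moved. The sign turned for 1 of 14 medians of the members, the injury median in WT, which was 0.022 with the mean of a gene's probe sets. Shares over all genes at the settings below are not given here, so the counts of members are a description only. With the limit lowered to 0.322 on the log2 scale, members higher and lower numbered 1 and 5 contralaterally, and members lower ipsilaterally numbered 8. At 2-fold, 1 member was lower on each side. With the background limit at the 99th percentile of the receptor probe sets (6.59), 1 was lower contralaterally and 2 ipsilaterally. *Spink8* was not among these, since all its levels lay below that limit. Counting members within 100 genes of *P4htm* alone left 2 lower ipsilaterally. Among other genes near *P4htm*, the lower limit gave 3 higher and 5 lower contralaterally, and 3 higher and 6 lower ipsilaterally. For those genes ipsilaterally, 2-fold, the 99th percentile, the nearest 50 genes and levels set to the background limit each gave 0 higher, no filter on low values gave 2 higher, and centring arrays on their median or cyclic loess gave 1 lower. In the injury comparison in WT, members higher numbered 0 with the mean of a gene's probe sets, with the 99th percentile and at 2-fold, and 3 at the lower limit, where 4 were lower in WT and 1 in KO. Counted from the lower limit on each side, 3 members had the same sign. The correlations without *Spink8* or *Ppm1m* and the values with levels set to the limit were chosen after seeing the data. The cause of these moves was not tested. No paired analysis was possible because each condition had 1 array.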
